A study of Mus musculus with 2 samples.

Results

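Interstitial C1q macrophages are macrophages of the lung tissue, outside the airspaces, that make the C1q subunits of the classical complement pathway. Here they were chosen by their UMIs (unique molecular identifiers, each standing for 1 captured RNA molecule). A barcode had to hold at least 200 genes, at most 20% mitochondrial UMIs and at least 1000 UMIs in all. At least 5 of these UMIs had to come from *C1qa*, *C1qb* and *C1qc* together. Fewer than 3 UMIs of the alveolar macrophage genes *Marco*, *Ear1*, *Plet1* and *Atp6v0d2* and fewer than 2 of the nonclassical monocyte genes *Adgre4*, *Pou2f2* and *Treml4* were allowed, and none of the B cell genes *Cd79a* and *Ms4a1* or the T cell genes *Cd3d*, *Cd3e* and *Cd3g*. The members were 120 of 25094 barcodes, 22 in the control library (11721 barcodes, 69200420 UMIs) and 98 in the knockout library (13373 barcodes, 64697396 UMIs). The genes of this rule, and *C1q* above all, were used to make the group, so their levels describe it and support nothing.

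The study asked what follows in the lung when the transcription factor gene *Cebpa* is lost from alveolar type 2 (AT2) cells, the surfactant-making cells of the alveolus. Lungs were dissociated and single-cell RNA-Seq (10x Genomics 3′ chemistry) was run on 1 library of *Cebpa* FF mice, which carry floxed *Cebpa* alleles without Cre (*Cebpa* fl/fl), and on 1 library of *Cebpa* KO mice, which carry the same floxed alleles and a tamoxifen-inducible Cre driven by the AT2 promoter of *Sftpc* (*Cebpa* ΔSftpc). Both genotypes received 5 daily injections of tamoxifen at 75 mg/kg and, by the study's rule for analyses later than 3 months, a second round of weekly injections, and were harvested 26 weeks after the first injection. No injury is named for these mice, the background was mixed, both sexes were used, and the mice were 3 months old unless the study stated otherwise. The labels name a preparation for FACS and the methods whole-lung suspensions, and no gate is given for these libraries. Each library pooled 3 mice, and no barcode tells which mouse a cell came from, so genotype, pool and library cannot be told apart and no test between genotypes was possible.

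The Cre line acts in AT2 cells, not in macrophages. In cells with at least 20 UMIs of AT2 marker genes other than *Sftpc*, the level of *Cebpa* was 149 CPM (UMIs per 1000000 UMIs; 1463 UMIs, 95% Poisson interval 141 to 157) in 484 FF cells and 86.9 CPM (277 UMIs, 77.0 to 97.7) in 387 KO cells. In the members, *Cebpa* had 6 UMIs in FF (66.2 CPM, 24.3 to 144) and 31 UMIs in KO (104 CPM, 70.9 to 148). The intervals of the members overlapped, so no direction was read for them. All intervals here are exact 95% intervals of the counting error, and the spread between mice is not in them.

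C1q is the recognition unit of the classical pathway. It is built from the A, B and C chains, binds antibody complexes and dying cells, and is made mainly by macrophages rather than by the liver. In the mouse lung, interstitial macrophages lie along vessels, airways and nerves and in the alveolar wall. A well-known type carries *Folr2* (a folate receptor), *Lyve1*, *Mrc1* (the mannose receptor CD206) and *Cd163* (the hemoglobin scavenger receptor), and another carries more MHC class II and *Cx3cr1*, and monocytes that enter the tissue can replace both.

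The 3 genes for the chains lie side by side on the minus strand of mouse chromosome 4 (GRCm38, GENCODE M21), *C1qb* at 136880129-136886187, *C1qc* at 136889804-136893065 and *C1qa* at 136895917-136898803. The 250 bases before the RefSeq start of *C1qb* and *C1qc* are shown because the group was chosen by the summed UMIs of the *C1q* genes. Capitals mark the 6 letters GAGGAA, searched on both strands (TTCCTC on the other), the core that ETS factors such as PU.1 bind; the sequences come from RefSeq for GRCm38.p6, in which 2 of the 3 genes were matched. The RefSeq start of *C1qc* lies inside the GENCODE span given above, so part of its window is within the gene by that annotation.
C1qb, chr4:136886201-136886450, minus strand: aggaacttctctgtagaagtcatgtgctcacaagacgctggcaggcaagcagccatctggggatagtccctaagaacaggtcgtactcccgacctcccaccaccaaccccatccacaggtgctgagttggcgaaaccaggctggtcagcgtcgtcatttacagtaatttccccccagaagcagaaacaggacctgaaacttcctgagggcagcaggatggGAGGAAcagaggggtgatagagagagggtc
C1qc, chr4:136892915-136893164, minus strand: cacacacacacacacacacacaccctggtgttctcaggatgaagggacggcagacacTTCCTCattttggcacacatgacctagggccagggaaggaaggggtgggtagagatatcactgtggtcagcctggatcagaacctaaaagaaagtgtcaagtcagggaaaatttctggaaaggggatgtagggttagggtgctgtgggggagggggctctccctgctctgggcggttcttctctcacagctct
Each window held 1 match, which began 30 bases before the start of *C1qb* on the coding strand and 193 bases before the start of *C1qc* on the other. The same letters stand in 7639 of all 32851 windows of this length (23.3%), so a match describes the sequence and does not mark a site. PU.1 itself is encoded by *Spi1*, which had 37 UMIs in FF members (408 CPM) and 85 in KO members (286 CPM).

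The C1q group was larger in the KO library, but most of its KO members carried as many markers of other cells as of macrophages. Of the barcodes that passed the filters on genes and mitochondrial UMIs, members were 0.192% in FF (22 of 11487, Clopper-Pearson interval 0.120 to 0.290%) and 0.740% in KO (98 of 13238, 0.601 to 0.901%), a log2 ratio of 1.95 (1.27 to 2.69). The median member held 2693.5 UMIs in FF and 1833.5 in KO. A median of 30 UMIs in FF (6 to 165) and 12 in KO (5 to 180) came from the *C1q* genes.

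Members were then compared by 2 marker lists, one of 14 macrophage genes (*Csf1r*, *Lyz2*, *Cd68*, *Adgre1* and others) and one of 9 endothelial genes. The median member had 44 macrophage-list UMIs in FF and 16 in KO, against 2.5 and 10 endothelial-list UMIs. Endothelial UMIs outnumbered macrophage UMIs in 2 of 22 FF and 38 of 98 KO members. A cell was therefore called macrophage-led when its macrophage-list UMIs were at least 2 times its summed endothelial, fibroblast, smooth muscle or pericyte and neutrophil UMIs, a cutoff chosen after the values were seen. It held for 19 FF members (86.4%) and 30 KO members (30.6%). The lists cut across a range rather than between types, since 1 FF and 25 KO members lay within 2-fold of the cutoff on either side.

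Among the other 68 KO members, the endothelial list was the largest of the 4 other lists in 55, the fibroblast list in 10 and the neutrophil list in 3. They had a median of 10.5 *C1q* UMIs and 1678.5 UMIs in all. The 3 other FF members had a median of 6 *C1q* UMIs and 10815 UMIs, 2 led by endothelial and 1 by fibroblast genes. Macrophage-led members were 0.165% of FF barcodes (0.0996 to 0.258%) and 0.227% of KO barcodes (0.153 to 0.323%), a log2 ratio of 0.45 (−0.42 to 1.37). The share of all members was thus 3.87-fold higher in KO and that of macrophage-led members 1.37-fold higher, the latter within counting error.

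**Figure D1:**
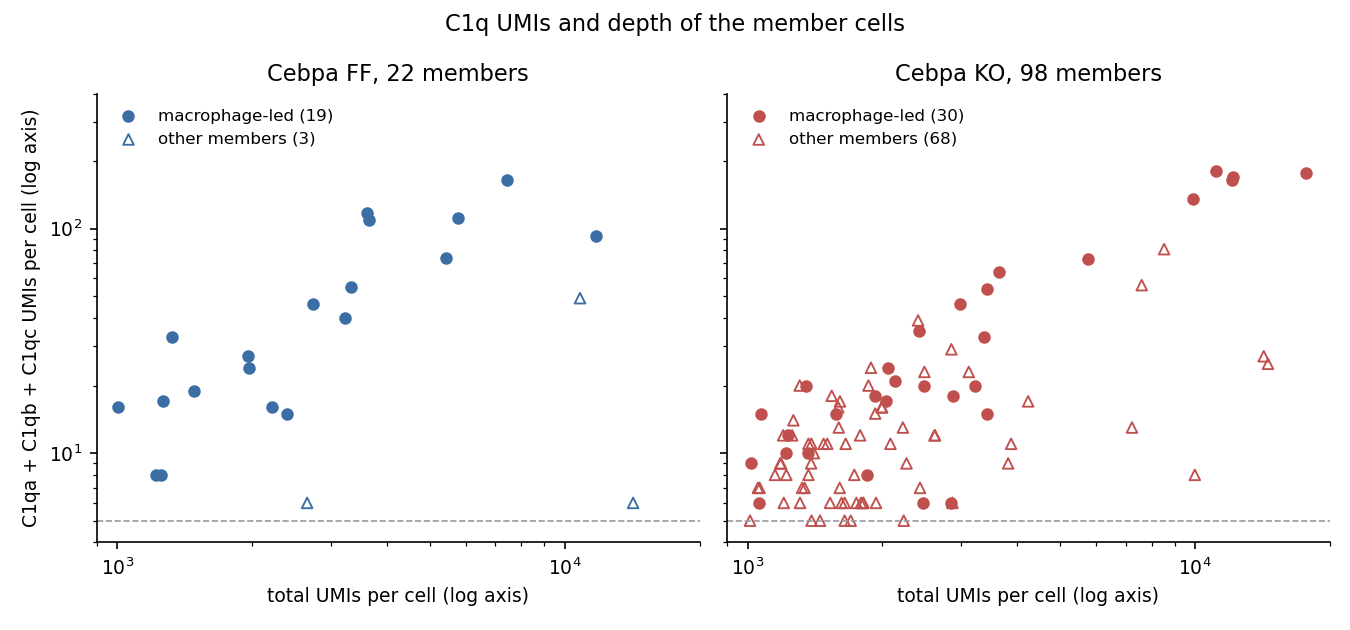
Each point is 1 member, with its total UMIs on the x axis and its summed *C1qa*, *C1qb* and *C1qc* UMIs on the y axis (both log axes), for FF at left and KO at right; filled circles are macrophage-led, open triangles are other members, and the dashed line is the limit of 5 UMIs. The 30 macrophage-led KO members reach 180 *C1q* UMIs, while most of the other 68 lie at low depth and near the limit.

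**Figure D2:**
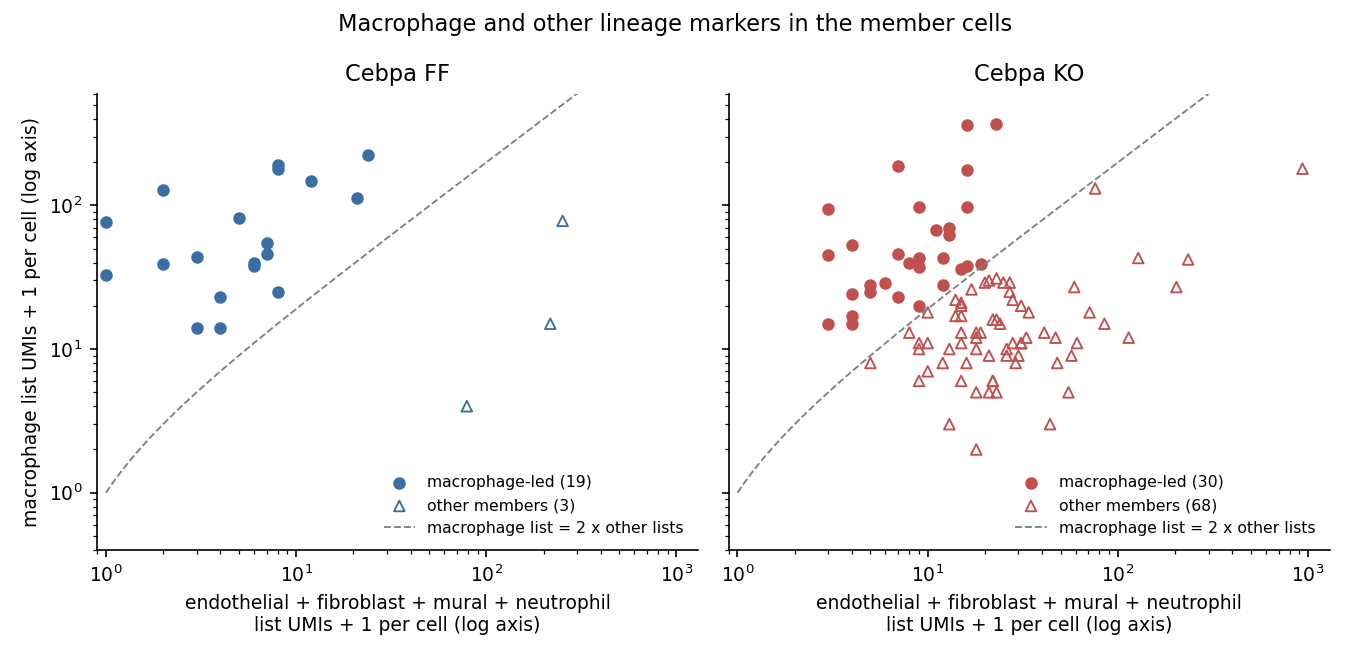
Each point is 1 member, with its summed endothelial, fibroblast, smooth muscle or pericyte (mural) and neutrophil list UMIs plus 1 on the x axis and its macrophage-list UMIs plus 1 on the y axis (both log axes); the dashed line is the 2-fold cutoff. In FF 19 of 22 points lie on the macrophage side, in KO 30 of 98.

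*C1q* RNA was also found at low level outside the group, more so in KO. Of all other cells with at least 1000 UMIs, 0.540% in FF and 6.17% in KO had a *C1q* UMI, at median depths of 5186.5 and 3481 UMIs. Among endothelial cells, which do not make C1q, the shares were 0.485% (7217 cells, median 5155 UMIs) and 5.34% (5884 cells, median 5150 UMIs). Among KO B cells (3.76%), T cells (5.29%) and neutrophils (6.36%) the share lay around that in endothelial cells. The summed *C1q* level of all other cells was 9.89 CPM in FF and 73.2 CPM in KO, but most of it came from cells with at least 5 *C1q* UMIs that were left out of the group, with 619 of 673 *C1q* UMIs in 4 FF cells and 3708 of 4601 in 65 KO cells. In other cells with fewer than 5 *C1q* UMIs the level was 0.794 CPM in FF (0.597 to 1.04) and 14.4 CPM in KO (13.4 to 15.3), with intervals that cover counting error only. The part of this RNA in the number of KO members near the limit was not tested.

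Just below the limit, FF had no cell with 3 or 4 *C1q* UMIs and KO had 30 and 15. Just above it, 5 and 6 UMIs were found in 0 and 2 FF cells and in 6 and 14 KO cells. The KO cells with 6 had medians of 10 macrophage-list and 9 endothelial-list UMIs. Other limits of the rule removed deeper cells with more *C1q*, most clearly the nonclassical monocyte limit. The alveolar limit took 12 KO cells, with medians of 15 *C1q* UMIs and 3432 UMIs in all. The B and T cell limits took 31 KO cells, with medians of 14 and 2955. The nonclassical monocyte limit took away 4 FF cells with a median of 149.5 *C1q* UMIs and 10365 UMIs in all, and 38 KO cells with medians of 56 and 11512. The former 4 held 619 *C1q* UMIs, against 1056 in all 22 FF members, and the latter 38 held 3349, against 2305 in all 98 KO members. The rule thus kept mostly shallow cells, and 45 barcodes occurred in both libraries with no member among them.

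Macrophage markers were found in the members of both libraries. All 14 genes of the macrophage list had UMIs, and the list summed to 17483 CPM in all FF members and 11436 CPM in all KO members, against 2568 and 4647 CPM in the other cells. The list's level in macrophage-led members was fixed by how they were chosen and bears on no label. Of 16 alveolar macrophage markers, 15 were at 0 in FF members, and *Car4* had 3 UMIs. The 16 include *Marco*, *Ear1*, *Plet1* and *Atp6v0d2*, which the rule limited, so part of this count was fixed by it. In KO members 14 of the 16 had UMIs (294 in all, *Car4* 120 and *Chil3* 96), with *Siglecf* and *Cidec* at 0. In other FF cells *Car4* was at 688 CPM and *Chil3* at 2.66 CPM, so *Car4* was not particular to alveolar macrophages. Of 13 dendritic cell genes 6 had UMIs in FF members (702 in all, 659 of them *Cst3*, which macrophages also make) and 9 in KO members (1245, *Cst3* 1000), with *Flt3*, *Ccl22*, *Clec9a* and *Xcr1* at 0 in both. *S100a8* and *S100a9* were at 0 in FF members. *Pf4* was the only one of 7 platelet-list genes found in FF members (214 UMIs), and macrophages of this kind are known to make it. In KO members 6 of the 7 had UMIs (264 in all, *Pf4* 245), with *Treml1* at 0.

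The genes that set members apart from all other cells were macrophage genes. Ranked by the smaller of the ratios in the 2 libraries, with genes of the rule left out, they were led by *Cxcl13* (a B cell-attracting chemokine), *Folr2*, *Mmp12* (macrophage elastase), *Ms4a7*, *Cd163*, *Fcrls*, *Ccl8*, *Mgl2*, *Aif1*, *Trem2*, *Apoe*, *Ccl2*, *Maf* and *H2-Eb1*. *Apoe*, the lipid carrier, was the most abundant of them, at 14670 CPM in FF members and 7534 CPM in KO members, against 636 and 514 CPM in other cells. *Folr2* was at 375 and 135 CPM against 0.0588 and 1.03 CPM over all other cells. It was not confined to the group, since the 65 KO cells with at least 5 *C1q* UMIs that other limits removed held 56 *Folr2* UMIs (90.5 CPM) against 40 in the 98 KO members. In FF members *Mmp12* had 2 UMIs in 1 cell and *Ccl2* had 3 UMIs in 2 cells. In KO members 1 cell each held 76.9% and 66.7% of their UMIs, so the ranks of both rest on few cells. Because the cells were chosen by *C1q*, the ranking is a description of the group and not a finding about it.

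Set beside other myeloid cells, the group shared some genes and lacked others. Cells taken by at least 2 nonclassical monocyte UMIs (28 FF, 483 KO) had *Lyz2* (lysozyme) at 12377 and 12493 CPM, near the 14402 and 9420 CPM of macrophage-led members. *Lyz2* is on the list by which macrophage-led members were chosen, so its level there supports nothing. The *Folr2* level of the monocyte-gated cells was 7.97 and 6.92 CPM, against 524 and 123 CPM in macrophage-led members. That gate includes C1q cells that the rule removed, since 4 of its 28 FF and 28 of its 483 KO cells had at least 5 *C1q* UMIs. The 4 FF cells held 2 *Folr2* UMIs, so these levels are not those of monocytes alone. *Ly6c2*, a monocyte gene, was at 339 and 286 CPM in the monocyte gate, and at 0 UMIs in FF and 24.6 CPM in KO macrophage-led members. KO cells taken by at least 3 alveolar macrophage UMIs (520) had *Mrc1* at 772 CPM, above the 509 CPM of KO macrophage-led members, with *Chil3* at 9011 and *C1qa* at 21.9 CPM. The same gate in FF took 173 cells with *Chil3* at 0.312 CPM and *Sftpc* at 17176 CPM, and the dendritic cell gate of both libraries was rich in the endothelial gene *Cldn5* (2624 and 2071 CPM), so neither was used.

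**Figure D3:**
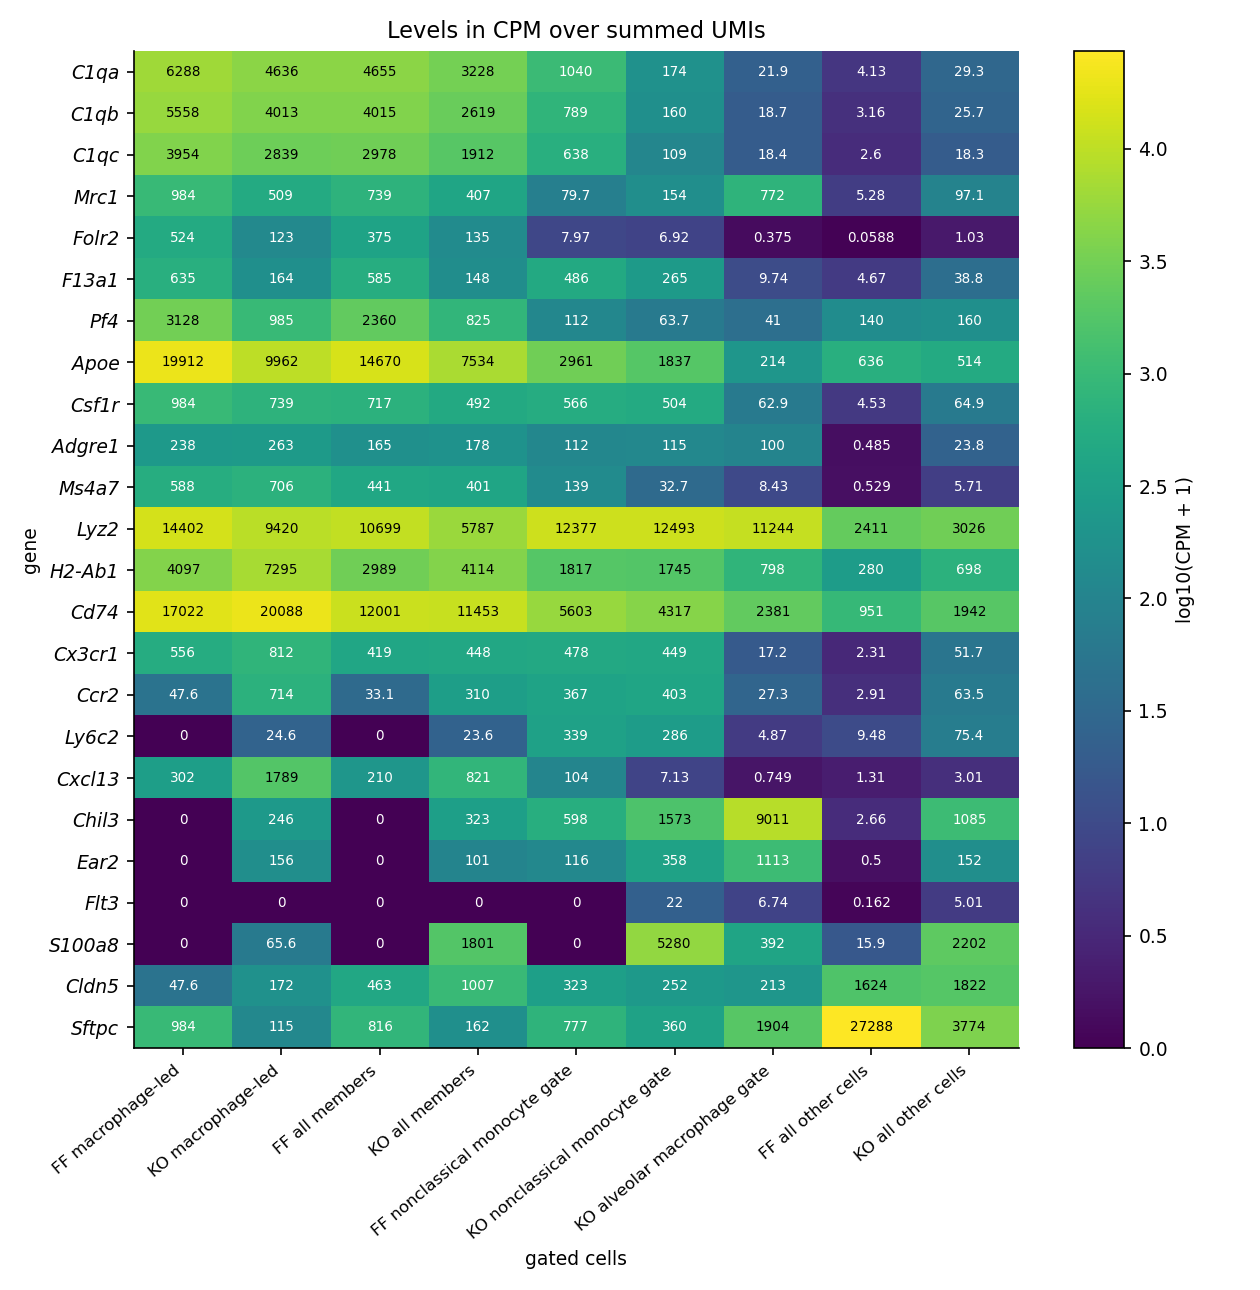
Levels in CPM of selected genes (rows) over the summed UMIs of gated cells (columns), printed in each field and coloured by log10(CPM + 1). *C1q* genes, *Folr2* and *Pf4* are highest in the members of both libraries, *Chil3* in the KO alveolar macrophage gate and *Sftpc* in the other cells of FF.

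The comparison of KO with FF members set cells taken by the same rule from both genotypes side by side. Macrophage-led cells were 86.4% of FF and 30.6% of KO members, so ratios over all members compare different mixtures of cells. UMIs of all members of a library were summed, and 1130 genes with at least 50 UMIs over both libraries were compared, with sums under 3 UMIs set to 3. The ratio was at least 2-fold higher in KO for 132 genes (11.7%) and at least 2-fold lower for 44 (3.89%), and the median log2 ratio was 0.06. For 86 of the 132 higher genes, other KO cells had a higher level than the members, and for 6 the members had at least 2 times the level of other KO cells. Of the 44 lower genes, 23 had at least 2 times the level of other FF cells in FF members. In macrophage-led members alone, 441 genes could be compared, with 40 higher (9.07%), 16 lower (3.63%) and a median of −0.15.

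The list of *Folr2* and *Lyve1* resident macrophage genes was lower in KO as a sum, while only some of its genes were 2-fold lower. Of the 18 genes of this list, 11 passed the count limit. None was 2-fold higher and 5 were 2-fold lower, against 11.7% and 3.89% of all genes, and the list median was −0.86. In macrophage-led members 6 of the list passed, of which 0 were 2-fold higher and 2 lower (9.07% and 3.63% of all genes), with a median of −0.95. Over the macrophage list in place of all UMIs, 2 of the 11 genes in all members were lower (1.15% of all genes) with a median of −0.25, where that of all genes was 0.67. With free RNA subtracted 3 were lower (6.9% of all genes), with a median of −0.46 against 0.04 for all genes. The summed list had 687 UMIs in 19 FF and 610 UMIs in 30 KO macrophage-led cells, a log2 ratio of −1.12 (−1.28 to −0.96).

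*Folr2*, the folate receptor, had 34 UMIs in FF members (375 CPM) and 40 in KO members (135 CPM), a log2 ratio of −1.48 (−2.17 to −0.77). In macrophage-led members it had 33 UMIs in 11 of 19 FF cells and 15 UMIs in 6 of 30 KO cells, a log2 ratio of −2.09 (−3.08 to −1.17). Without the FF cell with the most *Folr2*, the ratio was −1.93. After each cell was thinned to 1000 UMIs, so that depth was equal, 47.4% of FF macrophage-led cells (24.5 to 71.1%) and 16.7% of KO ones (5.64 to 34.7%) had a *Folr2* UMI, and the intervals overlapped.

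*F13a1*, the A chain of coagulation factor XIII, was at 585 CPM in FF members (53 UMIs in 12 cells) and 148 CPM in KO members (44 UMIs in 24 cells), a log2 ratio of −1.98 (−2.59 to −1.38). Macrophage-led members gave −1.95 (−2.80 to −1.14). *Pf4*, platelet factor 4, was at 2360 CPM in FF members (214 UMIs in 19 of 22 cells) and 825 CPM in KO members (245 UMIs in 65 of 98 cells), at −1.52 (−1.79 to −1.25). Macrophage-led members gave −1.67 (−2.01 to −1.33) with 197 and 120 UMIs, and with UMIs in 16 of 19 and 23 of 30 cells *Pf4* was the most widely seen gene of the list after *Selenop*.

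*Cd163* had 27 and 41 UMIs (298 and 138 CPM) in 6 FF and 19 KO members, a log2 ratio of −1.11 (−1.85 to −0.35). Without the FF cell with the most *Cd163* it was −0.70, and −0.88 in macrophage-led members, both short of 2-fold. *Cbr2*, a carbonyl reductase, had 37 and 30 UMIs (408 and 101 CPM), a ratio of −2.01 (−2.76 to −1.28), but its level was also lower in the other cells of KO, at 226 against 886 CPM. *Mrc1* was at 739 CPM in FF and 407 CPM in KO members, a log2 ratio of −0.86 (−1.30 to −0.41), short of 2-fold. *Selenop* (−0.63), *Fcgrt* (−0.84) also had lower levels. The intervals of *Gas6* (−0.68, −1.43 to 0.11), *Lyve1* (0.17, −0.73 to 1.18) and *Stab1* (0.16, −0.52 to 0.89) included 0, and endothelial cells also express the last 2. *Timd4* had 2 UMIs in each library.

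*Folr2*, *F13a1*, *Pf4*, *Cd163* and *Cbr2* kept their lower level in KO under all 18 alternatives tried. Dividing by the UMIs of the macrophage list in place of all UMIs brought them closest to 0, at −0.87 for *Folr2*, −1.37 for *F13a1*, −0.90 for *Pf4*, −0.50 for *Cd163* and −1.40 for *Cbr2*, because the list itself was lower in KO members by 0.61 on the log2 scale. In that scaling the median of all genes stood at 0.67. With at least 3000 UMIs per cell (10 FF, 21 KO cells), *Folr2* was at −2.56 and *F13a1* at −2.79. The cells with at least 5 *C1q* UMIs that other limits removed (4 FF, 65 KO) went both ways. There *Folr2* was at 40.8 CPM in FF and 90.5 CPM in KO, *Pf4* at 510 and 781 CPM, and *F13a1* at 326 and 255 CPM. Outside the list, the lectin receptor gene *Clec4a2* was also lower and higher in members than in other cells, at −1.76. *Mmp9*, a gelatinase, was at −1.36, but a single FF cell held 62.1% of its FF UMIs and without it the ratio was −0.16.

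The share of cells with any UMI of *Mrc1*, *Folr2*, *Cd163*, *F13a1* or *Cbr2* depended on depth. At 1000 UMIs per cell it was 72.7% of FF members (16 of 22, 49.8 to 89.3%) and 49.0% of KO members (48 of 98, 38.7 to 59.3%). In macrophage-led members it was 73.7% (14 of 19, 48.8 to 90.9%) and 53.3% (16 of 30, 34.3 to 71.7%). In all other cells, some of which express these genes, it was 14.3% and 15.9%. *Cbr2* alone was found in 13.1% of these other cells in FF and 8.49% in KO. Its level was higher in them (886 and 226 CPM) than in members (408 and 101 CPM), so it did not set members apart. Its own share of macrophage-led members was 36.8% in FF and 3.33% in KO. At full depth the shares with any of these genes were 81.8% and 74.5% of members. In macrophage-led members they were 78.9% (15 of 19) and 80% (24 of 30), where the direction was the opposite. The intervals of FF and KO overlapped in each of these comparisons of members.

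**Figure D4:**
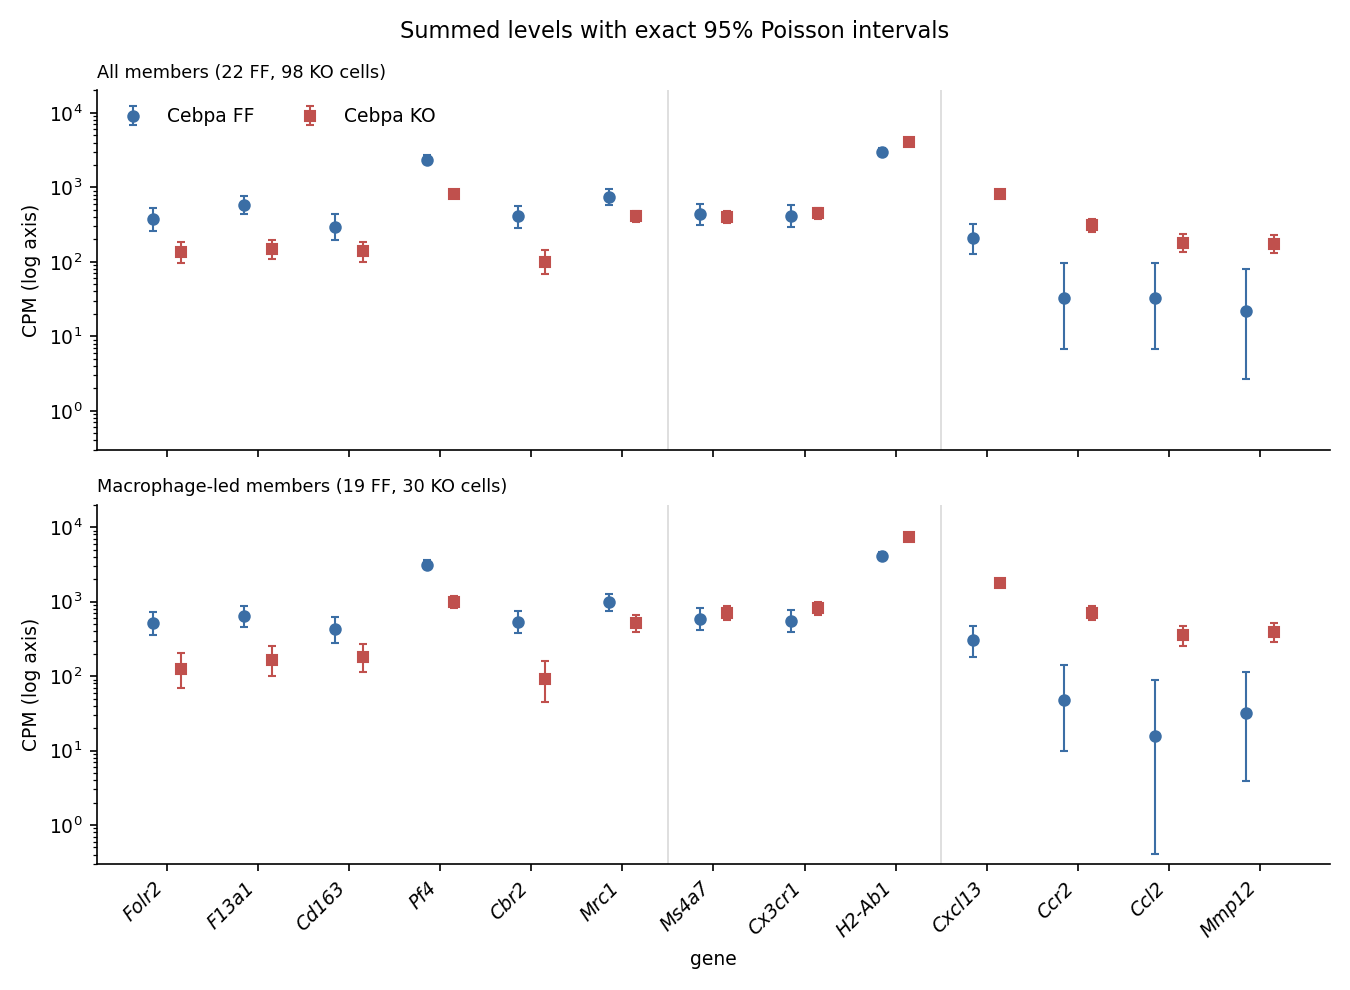
Summed levels in CPM (log axis) with exact 95% Poisson intervals in FF (blue circles) and KO (red squares), for all members (top) and macrophage-led members (bottom). The 6 resident genes at left lie lower in KO, *Ms4a7* and *Cx3cr1* lie close together, and *Cxcl13*, *Ccr2*, *Ccl2* and *Mmp12* at right lie higher in KO with few UMIs in FF.

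Lipid and general macrophage genes were mixed, and the ferritin genes were lower by less than 2-fold. Of 20 lipid-associated genes 8 passed, with *Lpl* and *Mmp12* at least 2-fold higher and *Trem2* lower (11.7% and 3.89% of all genes). The median was 0.62 and the summed list −0.70, a sum in which *Apoe* held 1330 of 1526 FF UMIs. In macrophage-led members 7 passed, with *Cd9*, *Lgals3*, *Lpl* and *Mmp12* 2-fold higher and 0 lower (9.07% and 3.63% of all genes), a median of 1.08 and a sum of −0.68. *Lpl* (9 and 57 UMIs there) and *Mmp12* (2 and 48) passed the limit mainly through KO UMIs, so the count and the median support nothing. Of 20 macrophage identity genes 17 passed, with 2 at least 2-fold higher, a share near the 11.7% of all genes, 0 lower and a median of −0.14. *Lyz2* was lower by less than 2-fold, at −0.89 (−1.001 to −0.77). *Apoe* had 1330 and 2238 UMIs in FF and KO members, a log2 ratio of −0.96 (−1.06 to −0.86), and −0.999 (−1.11 to −0.88) in macrophage-led members. *Trem2*, a lipid-sensing receptor, had 30 and 46 UMIs (−1.10, −1.79 to −0.38), and −0.71 (−1.49 to 0.09) in macrophage-led members. The ferritin genes *Fth1* (−0.68, −0.79 to −0.57) and *Ftl1* (−0.76, −0.90 to −0.62) were lower in all members, as was *Blvrb*, biliverdin reductase B (−1.02, 31 and 50 UMIs). Of 16 iron and heme genes 5 passed, with 0 at least 2-fold higher and *Cd163* and *Blvrb* lower (11.7% and 3.89% of all genes) and a median of −0.76. Over the macrophage list 0 were 2-fold lower (1.15% of all genes) and the median was −0.15, and with free RNA subtracted 0 were lower (6.9% of all genes) and it was −0.45. With 5 genes, a count of 0 is near these shares. *Ms4a7* (−0.14), *Aif1* (−0.13), *Maf* (−0.35), *Cx3cr1* (0.10) and *Adgre1* (0.11), which mark macrophages at large, had intervals that included 0. *Mpeg1*, perforin-2, and *Cybb*, the catalytic subunit of the phagocyte oxidase, were 2-fold higher, at 1.65 (11 and 113 UMIs) and 1.10 (17 and 119 UMIs), but both were also higher in the other cells of KO than in those of FF, *Mpeg1* at 200.5 against 3.38 CPM and *Cybb* at 327 against 7.54 CPM.

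The 6 genes that were 2-fold higher in KO and also at least 2 times as high in KO members as in other KO cells were *Cxcl2*, *Ccr2*, *Ccl2*, *Mmp12*, *Cxcl13* and *Csf2ra*. All 6 passed the count limit wholly or mainly through KO UMIs, so they could enter almost only as higher, and their number supports nothing. *Ccr2*, the receptor through which monocytes leave the marrow and enter tissue, had 3 UMIs in 2 of 22 FF members (33.1 CPM) and 92 UMIs in 19 of 98 KO members (310 CPM), a log2 ratio of 3.23 (1.63 to 5.53). In macrophage-led members it had 3 and 87 UMIs, in 2 of 19 and 15 of 30 cells, a log2 ratio of 3.91 (2.31 to 6.21). The KO cell with the most *Ccr2* held 43.7% of these UMIs, and without it the ratio was 3.22. That cell had 178 dendritic-list and 97 macrophage-list UMIs. With C1q cells with nonclassical monocyte UMIs kept, the ratio in all members was 2.05, and the 4 FF cells so added held 9 *Ccr2* UMIs (183 CPM). After thinning, 5.26% of FF (0.133 to 26.03%) and 33.3% of KO macrophage-led cells (17.3 to 52.8%) had a *Ccr2* UMI. In the other cells *Ccr2* was at 2.91 CPM in FF and 63.5 CPM in KO, so the higher level in KO was not particular to the members.

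*Cxcl13* had 19 UMIs in 6 FF members (210 CPM) and 244 UMIs in 23 KO members (821 CPM), a log2 ratio of 1.97 (1.30 to 2.73). In macrophage-led members it was found in 6 of 19 FF and 9 of 30 KO cells, with 19 and 218 UMIs. At 1000 UMIs per cell the shares were 10.5% (1.30 to 33.1%) and 30% (14.7 to 49.4%). The KO cells that had it held 1, 1, 4, 9, 12, 16, 16, 43 and 116 UMIs, and the FF cells 1, 1, 3, 3, 4 and 7. The log2 ratio was 2.57 (1.89 to 3.33), and 1.70 without the highest KO cell, so a few cells held most of the KO UMIs. When C1q cells with nonclassical monocyte UMIs were kept, *Cxcl13* in all members was at 0.57, and the 4 FF cells removed by that limit held 26 of its UMIs. The mean of per-cell CPM gave 0.36.

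*Ccl2*, a monocyte-attracting chemokine, had 3 and 54 UMIs (2.46, 0.83 to 4.78), and *Mmp12* had 2 and 52 (2.40, 0.78 to 4.73). In KO members 66.7% of the *Ccl2* and 76.9% of the *Mmp12* UMIs came from 1 cell each, and without that cell the ratios were 0.96 and 0.35, so both rest on 1 cell. *Cxcl2*, a neutrophil attractant, had 0 UMIs in FF and 164 in KO. With the FF sum set to the floor of 3 UMIs, its log2 ratio was 4.06 (2.49 to 6.35). Without the KO cell that held 73.2% of its UMIs this was 2.20, and that cell had 932 neutrophil-list and 179 macrophage-list UMIs. *Csf2ra*, a chain of the GM-CSF receptor, had 7 UMIs in 4 FF and 67 UMIs in 31 KO members (1.55, 0.42 to 2.92), and gave 1.88 (0.74 to 3.27) in macrophage-led members. It was at 0.93, under 2-fold, when C1q cells with nonclassical monocyte UMIs were kept. Other cells of KO also had more *Csf2ra* than those of FF (77.6 against 9.67 CPM), more *Cxcl2* (204 against 2.47 CPM) and more *Ccl2* (11.7 against 3.38 CPM).

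Other genes of recruited monocytes were mixed. Of 16 genes in that list 5 passed the count limit in all members, of which *Ccr2*, *S100a4* and *Lsp1* were 2-fold higher and 0 lower (11.7% and 3.89% of all genes), with a median of 2.25. *Ccr2*, *S100a4* and *Lsp1* all passed mainly through their KO UMIs, so they could enter almost only as higher. The count and the median, which is the ratio of *S100a4*, support nothing. *Ifitm3*, an interferon-induced gene and the most abundant of the list, was at −0.31 (−0.60 to −0.01), and at −0.71 (−1.23 to −0.18) in macrophage-led members. The summed list was at 0.47 (0.26 to 0.69), and at 1.40 (1.06 to 1.75) in macrophage-led members. *S100a4* had 7 and 94 UMIs in macrophage-led members (2.79, 1.70 to 4.15), and *Lsp1* had 2 and 67 in all members (2.77, 1.16 to 5.08). *S100a6* was at −0.03 in all members and at 1.81 in macrophage-led members. With a limit of 100 UMIs in place of 50 the list median was −0.03, as *Ccr2* and *Lsp1* no longer passed. *Ly6c2* had 0 UMIs in FF and 3 in KO macrophage-led members. Other KO cells also had more *S100a4* (213 against 17.2 CPM) and *Lsp1* (245 against 28.2 CPM) than other FF cells.

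MHC class II genes, which present antigen to CD4 T cells, were abundant in both libraries. In all members, *H2-Ab1* was at 2989 CPM in FF and 4114 CPM in KO (0.46, 0.27 to 0.66), *H2-Aa* at 4478 and 5056 CPM (0.18, 0.02 to 0.34), and *H2-Eb1* at 5074 and 5312 CPM (0.07, −0.08 to 0.22). In macrophage-led members the ratios were 0.83 (0.63 to 1.04), 0.60 (0.43 to 0.76) and 0.50 (0.34 to 0.66), and the summed list of 15 genes gave 0.44 (0.37 to 0.51). The mean of per-cell CPM in macrophage-led members gave 0.33 for *H2-Ab1*, 0.24 for *H2-Aa* and −0.09 for *H2-Eb1*, and in all members it turned all 3 to lower in KO (−0.28, −0.55 and −0.85), as totals without mitochondrial, hemoglobin and ribosomal protein genes did for *H2-Eb1* (−0.06). *H2-DMb1*, which helps load peptides, was at 1.13 (0.35 to 1.99) in macrophage-led members. *Cd74*, the invariant chain, was at 17022 and 20088 CPM there, a ratio of 0.24 (0.13 to 0.34) in sums and −0.18 in per-cell means.

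Immediate-early genes, which respond within minutes to stimuli including tissue dissociation, had a higher summed level in KO. Of 22 in the list 16 passed, with 8 at least 2-fold higher, 0 lower (11.7% and 3.89% of all genes) and a median of 0.97. In macrophage-led members 7 passed and 6 were 2-fold higher (9.07% of all genes), with a median of 2.78. The higher genes passed the limit mainly through their KO UMIs in both sets of cells, so these counts and medians support nothing. The summed list, which needs no limit, was at 0.87 (0.72 to 1.02) in all members and at 1.68 (1.41 to 1.95) in macrophage-led members, with 133 UMIs in FF and 823 in KO. *Fos* had 6 UMIs in 2 of 19 FF and 150 UMIs in 20 of 30 KO macrophage-led cells, a log2 ratio of 3.69 (2.54 to 5.16). *Egr1* (4 and 56 UMIs, 2.86), *Junb* (9 and 120 UMIs, 2.78) and *Dusp1* (3 and 55 UMIs, 3.24) followed. In other cells *Fos* was at 508 CPM in FF and 711 CPM in KO and *Junb* at 452 and 1041 CPM. The part of tissue handling in these values was not tested.

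Several of the largest ratios in all members came from genes of other cells. *S100a8* and *S100a9*, the calprotectin genes of neutrophils, had 0 UMIs in FF members and 535 and 494 in KO members. With the FF sums set to the floor of 3 UMIs, the log2 ratios were 5.77 (4.21 to 8.05) and 5.65 (4.10 to 7.93). A single KO member with 932 neutrophil-list UMIs held 86.4% and 79.6% of the KO UMIs, and KO macrophage-led members had 8 and 17 UMIs. Other KO cells had more, at 2202 and 2467 CPM, against 1801 and 1663 CPM in KO members. *Il1b*, *Chil3*, *Cdkn1a* and *Car4* also had higher levels in other KO cells than in KO members, as did the endothelial genes *Ctla2a* and *Tbx3*. Among the lower genes, 1 FF member with 208 fibroblast-list UMIs held 100% of the FF UMIs of *Mmp3* (51), 93.6% of *Mgp* (406) and 93.5% of *Gsn* (310). Without that cell and the neutrophil-rich KO member, *Mgp* and *Gsn* were at 1.33 and 1.68, higher in KO. *Sftpc*, the surfactant gene of AT2 cells, was at 816 CPM in FF and 162 CPM in KO members, and at 27288 and 3774 CPM in the other cells. An alternative subtracted the summed profile of the library's other cells. It was scaled until the members' endothelial and AT2 marker UMIs came to 0 as a single sum, so neither list alone did. The subtraction took away 11.0% of FF and 40.3% of KO member UMIs. In other cells the AT2 list was at 35830 CPM in FF and 5560 CPM in KO, and the endothelial list at 13791 and 11193 CPM. The lists thus weighed differently in each library. With this subtraction *Chil3* was at −1.71 and *Cbr2* at −4.49.

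**Figure D5:**
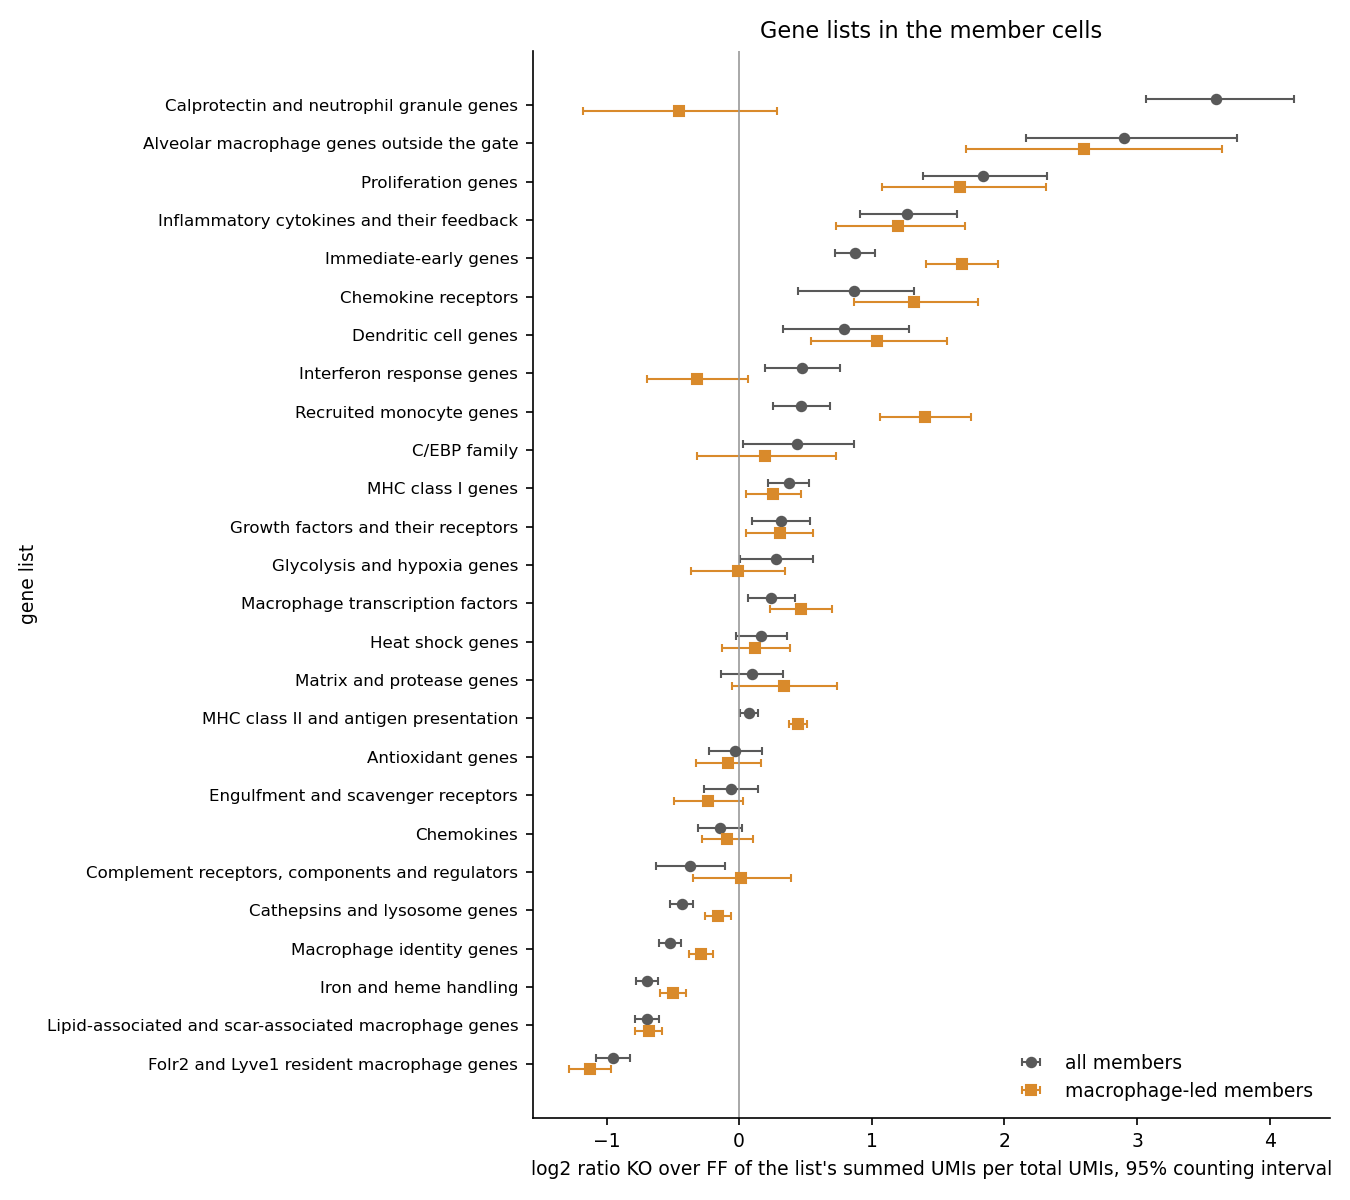
Log2 ratio of KO over FF of the summed UMIs of each gene list per total UMIs (x axis, with 95% counting intervals) for all members (grey circles) and macrophage-led members (orange squares). The *Folr2* and *Lyve1* list has the lowest ratio in both, at −0.96 and −1.12, and the calprotectin list goes from 3.59 in all members to −0.45 in macrophage-led members.

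Most remaining lists differed less or had few genes past the count limit, but some of their sums were large. Alveolar macrophage genes outside the rule summed to 15 and 368 UMIs in FF and KO members (2.90, 2.16 to 3.76). In macrophage-led members they summed to 11 and 129 UMIs (2.60, 1.71 to 3.64). Of the 368 KO UMIs, 120 were *Car4* and 96 *Chil3*. Both had higher levels in other KO cells (595 and 1085 CPM) than in KO members (404 and 323 CPM). In other FF cells *Car4* was at 688 CPM and *Chil3* at 2.66 CPM, so the sum does not mark alveolar macrophages alone. Inflammatory cytokine sums were at 1.27 (0.91 to 1.64) in all and 1.20 (0.73 to 1.70) in macrophage-led members. Proliferation sums were at 1.84 (1.39 to 2.32) and 1.67 (1.08 to 2.31) likewise. Of 22 chemokine genes 10 passed in all members, with *Ccl2*, *Ccl5*, *Cxcl2* and *Cxcl13* 2-fold higher and *Ccl8* and *Pf4* lower (11.7% and 3.89% of all genes). The 4 higher genes passed the limit wholly or mainly through KO UMIs (54, 58, 164 and 244 against 3, 0, 0 and 19 in FF), so their count supports nothing. In macrophage-led members 5 passed, with *Cxcl13* higher and *Ccl8* and *Pf4* lower (9.07% and 3.63%). *Ccl8*, a monocyte attractant made by resident macrophages, had 41 UMIs in 6 FF cells and 39 in 11 KO cells, a log2 ratio of −1.78 (−2.45 to −1.12), but was at 1.08 among cells with at least 3000 UMIs. A single FF cell held 43.9% of its FF UMIs. Without that cell the ratio was −0.97, and −0.86 in macrophage-led members, both short of 2-fold. Of 17 proliferation genes 3 passed (*Stmn1*, 4 and 91 UMIs, *Tubb5*, 21 and 150, and *Hmgb2*, 10 and 125), mainly through KO UMIs, and were 2-fold higher (11.7% of all genes), which supports nothing, while *Mki67* and *Top2a* had 0 UMIs in FF and 15 each in KO. *Lpl*, lipoprotein lipase, had 9 and 57 UMIs in macrophage-led members (1.71, 0.69 to 2.91). The C/EBP family was represented by *Cebpb*, at 221 CPM in FF and 367 CPM in KO members (0.73, 0.04 to 1.501), and *Cebpd*, at 188 and 246 CPM (0.39, −0.39 to 1.25). Complement receptors and regulators other than C1q had 3 of 22 genes past the count limit, with a median of −0.28 and 0 at 2-fold in either direction (11.7% and 3.89% of all genes), which with 3 genes is near the share of all genes.

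Macrophage-led members with and without a resident-type UMI differed from each other in some genes alike in both libraries and in others not. At full depth, 15 of 19 FF and 24 of 30 KO cells had such a UMI. *Pf4* was at 3890 CPM in FF cells with one and 299 CPM in the 4 FF cells without, and at 1093 and 255 CPM in the KO cells. *Apoe* was at 24044 and 4566 CPM in FF and at 10521 and 6180 CPM in KO. *Ccl8* and *Gas6* had UMIs in the former cells alone in both libraries. *Cd52* was higher in the cells without, at 2470 against 423 CPM in FF and 2102 against 923 CPM in KO, whereas *H2-Aa* was higher in them in FF (9356 against 5462 CPM) and lower in KO (7199 against 9843 CPM). *H2-Ab1*, *H2-Eb1* and *Cd74* also ran opposite ways in FF and KO. *Csf1r*, the receptor for macrophage colony-stimulating factor, was at 1209 CPM with and 150 CPM without such a UMI in FF, and at 735 and 764 CPM in KO. *Ccr2* in KO was at 688 CPM in cells with a resident-type UMI and 892 CPM in those without. With 4 FF and 6 KO cells lacking such a UMI, these values describe the cells and no more.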

How the data were processed

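Whole lungs were dissociated and 2 single-cell RNA-Seq libraries (10x Genomics 3′ chemistry) were made, 1 per genotype. The authors made the deposited count matrices with Cell Ranger (6.1.1 in the submitters' processing notes, 5.0.0 in the file header) on mm10; they hold whole-number UMI counts of 32285 genes per barcode, not normalized. From these counts, barcodes were filtered on genes, mitochondrial UMIs and depth as the study's methods and the rule for the members state. Members and gene lists were chosen with earlier results of these data known, and the macrophage-led split after these values were seen.

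UMIs were summed per library and divided by all UMIs (CPM). With 1 library per genotype there was no test. Ratios have exact conditional binomial intervals, levels exact Poisson intervals and shares Clopper-Pearson intervals, all at 95%, and a log2 ratio of 1 in size was called. Sums under 3 UMIs were set to 3. Named genes were the 12 highest and 12 lowest ratios whose interval excluded 0, among all genes with at least 50 UMIs and among those 2-fold over other cells, the 15 most enriched in members, and examples from the lists. A gene that these rules name is not reported here. For the alternative with free RNA subtracted, the summed profile of the library's other cells stood in for free RNA. It was scaled until the members' endothelial and AT2 marker UMIs came to 0 as a single sum. Cells were thinned to 1000 UMIs with a fixed seed for shares. Scrublet, set to take 8% of barcodes, marked 0 FF and 2 KO members, which were kept. The scripts recovered known ratios in simulated counts. Python 3.11.15, numpy 2.4.6, scipy 1.17.1, pandas 2.3.3 and scanpy 1.11.5 were used.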

Additional observations from a re-analysis of the deposited data

How the results depend on the processing

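The log2 ratio of the members' share (1.95) was 0.87 with at least 3000 UMIs per cell, 0.15 with members carrying markers of other lineages left out and 0.45 in macrophage-led members. The KO share of cells with a resident-type UMI (49.0% after thinning) was 23.8% with at least 3000 UMIs and 74.5% without thinning. The count of 132 higher genes was 239 with at least 3 *C1q* UMIs, 228 with *C1q* at 0.1% of UMIs and at least 3, 68 with at least 3000 UMIs, 32 without other lineages, 40 in macrophage-led members, 209 with nonclassical monocyte UMIs allowed, 542 and 51 with at least 20 and 100 summed UMIs, 286 by the mean of per-cell CPM and 355 over the macrophage list. The count of 44 lower genes was 28 with at least 10 *C1q* UMIs, then 23, 13 and 16 with at least 3000 UMIs, without other lineages and in macrophage-led members, 133 and 13 with at least 20 and 100 summed UMIs, 94 by per-cell CPM, 78 with free RNA subtracted, 68 without mitochondrial, hemoglobin and ribosomal protein genes in the totals and 13 over the macrophage list. The higher share of called genes (75%) was 96.5% over the macrophage list and 62.6% without those genes in the totals. Fewer cells or genes enter several of these, and the causes were otherwise not tested.

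Ratios past 2-fold, and 1 median, that took the other sign were *Mgp* (0.65 with at least 10 *C1q* UMIs, 1.71 with *C1q* at 0.1% and at least 3 UMIs, 0.74 without other lineages, 0.080 in macrophage-led members, 1.33 without the neutrophil-rich KO and fibroblast-rich FF member), *Gsn* (1.60, 2.01, 0.98, 0.58 and 1.68 likewise), *Nbl1* (0.59, 1.21, 0.56 and, without those 2 members, 0.83), *Plpp3* (0.49, 1.35, 0.30 by per-cell CPM and 1.13 without those 2 members), *Hmcn1* (0.30 without other lineages), *Ccl8* (1.08 with at least 3000 UMIs), *Car4* (−0.52 with nonclassical monocyte UMIs allowed), *Chil3* (−1.71 with free RNA subtracted) and the recruited monocyte median (−0.031 with at least 100 summed UMIs). Smaller ratios also took both signs, *H2-Eb1* below 0 in 8, *H2-Aa* in 4, *H2-Ab1* in 1, *Mgl2* in 2 and *Ifi27l2a* in 2 of 18 settings, and *Ms4a7* above 0 in 6, *Aif1* in 5 and *Maf* in 4. The alternatives on macrophage-led members, nonclassical monocyte UMIs, the macrophage list as denominator and the 2 outlying members were chosen after seeing the data. No paired analysis was possible because each genotype had 1 library, and no replicate could be left out. Precision was limited by 90661 UMIs in 22 FF members, of which 5 cells held 55.1%.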
